A study of Mus musculus with 8 samples.

Results

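Of the 55247 rows in the gene count table, 1728 carried only a serial identifier (Novel1 to Novel1728) with no gene name and no Ensembl identifier, and 53519 carried an Ensembl gene. All 1728 unnamed transcribed regions were taken, whatever their counts, and were grouped by chromosome or unplaced scaffold and by the length given in the table. The 8 RNA-seq libraries came from back skin with EL4 tumour of wild-type C57BL/6J female mice, 4 given bexarotene and 4 given vehicle. Every mouse was 8 weeks old and received 100 µL of EL4 cells at 2000000 cells/mL under the skin on day 0. The bexarotene mice received 0.1 mg of the drug into the peritoneum on day 14, and tissue of both groups was taken on day 16. EL4 is a mouse T-cell lymphoma line of C57BL origin, so the model is 1 transplanted line and not a lymphoma that arose in the skin. Bexarotene is an agonist of the retinoid X receptors that is given to patients with cutaneous T-cell lymphoma. The samples titled NT are the vehicle group, nothing in the labels pairs mice across the groups, and the study's methods name the substrain C57BL/6JJmsSlc where the labels have C57BL/6J.

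A mammalian genome is read well beyond its annotated genes. Reads that align outside them can come from unannotated non-coding RNAs, from copies of mobile elements such as endogenous retroviruses, or from stray copies of ribosomal RNA genes, whose many tandem copies are only partly placed in the assembled genome. Ribosomal RNA is the bulk of total RNA in a cell and is removed before sequencing in a depletion protocol such as the one used here, but removal is rarely complete. A region defined from reads has no known product, so the descriptions below are of sequence, position and counts.

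The regions with the most counts are shown first because nearly all of the counts in unnamed regions fell in them. The matches marked from Novel981 to Novel274 cover only part of each region and do not tell what the region is. They are to annotated transcripts, and likeness to large-subunit ribosomal RNA was not analysed here. All positions are on GRCm39, and each line is the forward strand read 5′ to 3′ unless stated otherwise. Novel981 lies at chr3:5925391-5925886 and its first 300 bases are printed. Its capitals mark bases 9 to 81, which matched the annotated microRNA hairpin Mir6240 at 94.5% identity over 73 bases.
Novel981: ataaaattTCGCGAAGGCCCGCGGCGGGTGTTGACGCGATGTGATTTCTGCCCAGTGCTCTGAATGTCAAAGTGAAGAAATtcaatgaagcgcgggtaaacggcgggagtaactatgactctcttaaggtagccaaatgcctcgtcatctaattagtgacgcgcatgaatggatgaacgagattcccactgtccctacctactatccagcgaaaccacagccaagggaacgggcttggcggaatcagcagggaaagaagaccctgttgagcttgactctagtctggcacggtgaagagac
Novel1593 lies at the very start of the unplaced scaffold MU069435.1, bases 1 to 1965. Capitals in its first 200 bases mark bases 1 to 140, which matched transcripts of Lars2, the mitochondrial leucyl-tRNA synthetase gene, at 99.3% identity.
Novel1593 bases 1 to 200: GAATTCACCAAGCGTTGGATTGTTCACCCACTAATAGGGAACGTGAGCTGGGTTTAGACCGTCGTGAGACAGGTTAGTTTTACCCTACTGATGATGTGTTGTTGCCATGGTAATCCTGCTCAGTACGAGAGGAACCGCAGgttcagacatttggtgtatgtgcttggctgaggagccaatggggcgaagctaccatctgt
Capitals in the next line mark bases 366 to 422, which were identical over all 57 bases to the annotated microRNA gene ENSMUSG00002076173, itself a row of the count table. They lie within bases 363 to 556, which were identical over 194 bases to the long non-coding gene Gm61125.
Novel1593 bases 331 to 460: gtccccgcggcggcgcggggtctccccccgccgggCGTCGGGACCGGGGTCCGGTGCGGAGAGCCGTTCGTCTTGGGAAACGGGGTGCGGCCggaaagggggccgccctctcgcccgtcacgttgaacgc
Novel617, at chr16:17040155-17040380, carried another Lars2-like stretch in capitals, 95.2% identical over 125 aligned bases.
Novel617: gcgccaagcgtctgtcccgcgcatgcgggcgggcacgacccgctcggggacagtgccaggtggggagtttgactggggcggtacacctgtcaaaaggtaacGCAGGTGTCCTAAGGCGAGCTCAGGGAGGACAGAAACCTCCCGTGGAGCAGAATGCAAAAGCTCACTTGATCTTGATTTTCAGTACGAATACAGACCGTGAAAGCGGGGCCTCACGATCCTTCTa
Novel274 lies at chr11:108902471-108902948 and its capitals mark 43 bases identical to the reverse strand of the non-coding gene Gm73646.
Novel274 bases 1 to 150: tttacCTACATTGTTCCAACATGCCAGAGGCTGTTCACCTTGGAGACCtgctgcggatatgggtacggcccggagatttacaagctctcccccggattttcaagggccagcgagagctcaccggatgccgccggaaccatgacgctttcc

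Novel1219 is shown because it is a close copy of a known ribosomal RNA. It lies at chr6:3200766-3201669 on the plus strand and matched Rn18s, the small-subunit ribosomal RNA row of the table, at 98.2% identity over 900 bases (positions 329 to 1228 of Rn18s). Capitals in its first 300 bases mark the 2 bases there that differ from Rn18s, of 16 that differ over the whole match.
Novel1219 bases 1 to 300: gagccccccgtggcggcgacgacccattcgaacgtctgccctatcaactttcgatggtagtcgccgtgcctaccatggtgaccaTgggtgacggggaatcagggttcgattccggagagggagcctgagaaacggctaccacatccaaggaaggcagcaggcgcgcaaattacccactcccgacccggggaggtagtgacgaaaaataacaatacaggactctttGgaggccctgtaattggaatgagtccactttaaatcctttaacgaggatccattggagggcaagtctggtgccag
The next 4 regions are set side by side because they are near copies of each other at 4 places in the genome, and capitals mark bases that differ from Novel1430. Novel1430 is at chr8:15569773-15570126, Novel1284 at chr6:44769861-44770233, Novel571 at chr15:86078971-86079528, and Novel1301 at chr6:109482080-109482434 with its reverse strand shown. Bases missing from a line relative to Novel1430 have no mark, and the first capital of Novel1301 is an extra base that Novel1430 lacks.
Novel1430: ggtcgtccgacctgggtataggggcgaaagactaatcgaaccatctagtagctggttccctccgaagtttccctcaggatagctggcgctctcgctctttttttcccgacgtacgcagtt
Novel1284: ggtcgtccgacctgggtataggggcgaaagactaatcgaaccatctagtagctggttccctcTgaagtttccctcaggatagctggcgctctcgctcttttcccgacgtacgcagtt
Novel571: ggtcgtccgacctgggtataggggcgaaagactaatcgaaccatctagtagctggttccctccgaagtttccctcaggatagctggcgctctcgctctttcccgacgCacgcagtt
Novel1301: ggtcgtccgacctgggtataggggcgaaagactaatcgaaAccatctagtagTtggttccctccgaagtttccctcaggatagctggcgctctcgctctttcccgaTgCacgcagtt
Over their whole matches with Novel1430, Novel1284 was 98.6% identical, Novel571 97.1% and Novel1301 96.2%. The last sequence, Novel1293 at chr6:68224847-68225212, belongs to a cluster of unnamed regions inside the immunoglobulin kappa locus that is described further on.
Novel1293 bases 1 to 200: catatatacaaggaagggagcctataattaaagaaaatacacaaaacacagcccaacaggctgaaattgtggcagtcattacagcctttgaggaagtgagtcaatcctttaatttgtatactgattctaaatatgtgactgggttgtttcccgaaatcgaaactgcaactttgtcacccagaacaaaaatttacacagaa

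Library totals ran from 8518428 to 18340980 counts in the bexarotene group and from 16196852 to 24020342 counts in the vehicle group. Bexarotene 1 and Bexarotene 2 stood apart from the other 6 libraries in depth, in scaling factor and in 1 of 2 measures of composition. Outside the unnamed regions, Rn18s, Lars2 and ENSMUSG00002076173, 6.46, 3.92, 14.8 and 12% of counts remained in the bexarotene libraries, against 19.4, 10.6, 8.02 and 17.7% in the vehicle libraries. The TMM factors, which scale each library in edgeR to the bulk of its genes, were 0.544 and 0.278 for these 2 libraries, 1.61 and 1.25 for Bexarotene 3 and 4, and 0.763 to 2.18 in the vehicle group. Outside the unnamed regions and Rn18s only, the shares were 14.2, 12.6, 20.6 and 18.1%, against 25.1, 16.5, 13.8 and 23.1%, so by that measure Vehicle 3 lay between the 2 libraries. Group differences that rest on Bexarotene 1 and 2 are given also without them, a setting added after seeing the data, and the part of library composition in the results was not tested. The 7 T-lineage markers, which EL4 cells share with host T cells, summed to 139 to 167 TMM-scaled CPM (counts scaled to a fixed library size) in the bexarotene libraries and 130 to 189 in the vehicle libraries. The 4 keratinocyte keratins summed to 30 to 78.7 and 1.24 to 270 CPM, and the 4 fibroblast collagen and decorin genes to 372 to 1680 and 255 to 768 CPM, so skin cells were measured in both groups and in unequal amount among mice. Macrophage markers summed to 12.2 to 20.9 and 14.7 to 37.9 CPM and red cell globins to 6.34 to 18.3 and 5.42 to 25.4 CPM. Neutrophil markers, near 0 in all libraries, summed to 0 to 0.99 and 1.37 to 2.78 CPM without overlap, and the 2 of 3 listed muscle genes in the table to 0.845 to 33.5 and 0.703 to 7.51 CPM. The B-cell marker Ms4a1 had no count in any library. In bulk tissue, fewer cells that make an RNA and less of it per cell cannot be told apart.

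The unnamed regions were 3.13% of the rows and held 25.6% of all counts. Their share was 28.1, 28.8, 24.6 and 24.9% in the bexarotene libraries, against 24.1, 26.1, 26.4 and 24.8% in the vehicle libraries. The bexarotene mean was 26.6% ± 2.14 and the vehicle mean 25.4% ± 1.1 (SD, n = 4 each), a difference of 1.22 percentage points that was within the spread between mice (two-sided exact permutation test, p = 0.314, adjusted over the 12 shares and numbers tested 0.411). With Bexarotene 1 and 2 left out, an alternative added after seeing the data, the difference was -0.609 percentage points (exact permutation p = 0.667). The shares of the 2 groups thus overlapped, and the small excess with bexarotene was not seen without those 2 libraries. They had the highest shares, so leaving them out had to lower the bexarotene mean and cannot show that the groups are alike.

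**Figure D1:**
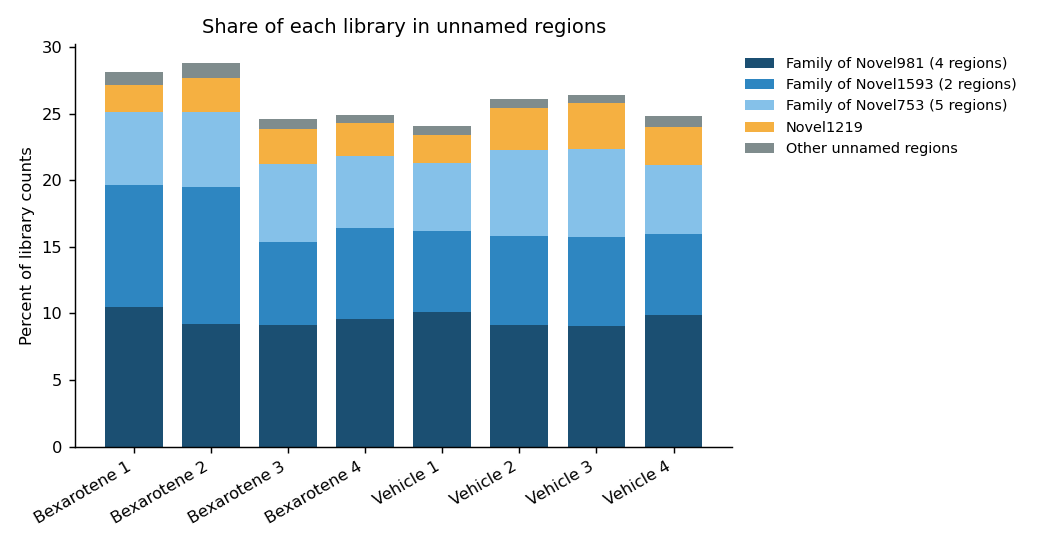
Percent of each library's counts (vertical axis, stacked bars) in the 3 most abundant families of like sequences, in Novel1219 and in all other unnamed regions, for the 4 bexarotene and 4 vehicle libraries. The bars reach 24.1 to 28.8%, and the family of Novel1593 is widest in Bexarotene 1 and 2.

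Counts were held by very few regions. Novel981 alone had 36.8% of the counts in unnamed regions, Novel981 and Novel1593 together had 63.7%, and the 10 regions with the largest mean share of a library had 99.1%. The median region had 10 counts over the 8 libraries, 576 regions had 1 to 10 counts and 289 had none. Only 25 regions passed 4000 counts, and 418 had a count in all 8 libraries. The remaining 1718 regions together took 0.133, 0.0985, 0.293 and 0.183% of the bexarotene libraries, against 0.333, 0.144, 0.156 and 0.457% of the vehicle libraries (exact permutation p = 0.257, adjusted 0.411). The difference of -0.0955 percentage points was -0.0342 without Bexarotene 1 and 2.

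Novel981, the most abundant region, took 10.4, 9.08, 9.04 and 9.47% of the counts in the bexarotene libraries, against 10.1, 8.97, 8.9 and 9.73% in the vehicle libraries. Its share was nearly the same in every mouse and the groups overlapped fully. It lies in an intron of the non-coding gene Gm37350. Mir6240, the hairpin it resembles, had no count in any library. Novel1593 took 9.17, 10.3, 6.19 and 6.82% in the bexarotene libraries, against 6.12, 6.68, 6.7 and 6.13% in the vehicle libraries. Bexarotene 1 and 2 were high, and Bexarotene 3 and 4 lay close to the vehicle range. The row ENSMUSG00002076173, whose sequence is contained in Novel1593, was also highest in Bexarotene 1 and 2, with 5.87, 7.4, 2.49 and 2.88% in the bexarotene libraries, against 2.65, 2.37, 2.29 and 2.58% in the vehicle libraries. Other rows like Novel1593 were not. Lars2 was lowest there, with 1.83, 1.3, 3.36 and 3.24%, against 3.03, 3.5, 3.46 and 2.82%. ENSMUSG00002075551, 98.2% identical over 57 bases, had 0.207, 0.2, 0.228 and 0.21%, against 0.163, 0.306, 0.33 and 0.248%. Identical over those 57 bases, ENSMUSG00002075524 had 0 counts and ENSMUSG00002075188 had 232. Reads that fit several near-identical places can be placed at any of them or dropped, so counts of such rows are uncertain as levels of 1 locus.

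Novel753, on chromosome 18, took 2.52, 2.42, 3.05 and 2.74% of the bexarotene libraries, against 2.59, 2.97, 3.15 and 2.78% of the vehicle libraries. Novel1219, the Rn18s-like region, took 2.04, 2.51, 2.58 and 2.49%, against 2.1, 3.2, 3.44 and 2.87%. Novel1430 took 2.18, 2.41, 2.13 and 2.08%, against 1.92, 2.6, 2.45 and 1.65%. All 3 overlapped between the groups. Novel274 took 0.722, 0.882, 0.431 and 0.443%, against 0.374, 0.526, 0.525 and 0.315%, again with Bexarotene 1 and 2 above the rest. Novel1284 averaged 0.378% ± 0.0814 with bexarotene and 0.393% ± 0.106 with vehicle, Novel571 0.35% ± 0.0421 and 0.388% ± 0.0872, and Novel751, also on chromosome 18, 0.0985% ± 0.00881 and 0.107% ± 0.0357 (SD, n = 4 each). Novel126, the last of the 10 by mean share, had counts in a different pattern and is treated separately. Below them came Novel617, with 0.0147% ± 0.00172 with bexarotene and 0.0173% ± 0.00535 with vehicle, and Novel89 at chr1:56821207-56821545, with 0.00985% ± 0.00133 and 0.0111% ± 0.00295. Novel89 matched Rn18s on its reverse strand at 96.7% identity over 338 bases.

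**Figure D2:**
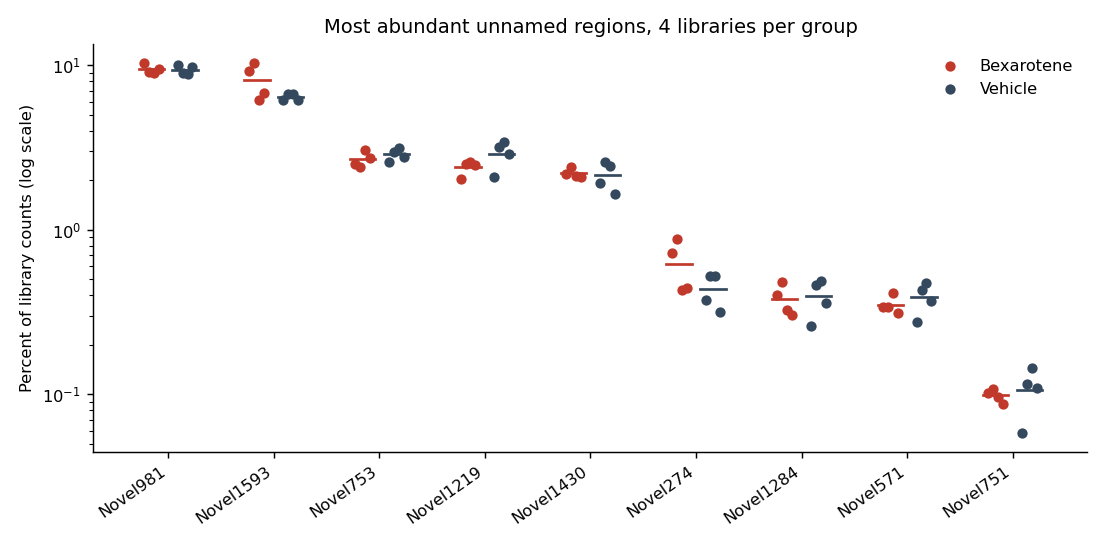
Percent of library counts (vertical axis, log scale) in 9 of the 10 most abundant unnamed regions, with bexarotene libraries left of vehicle libraries; points are libraries and bars are group means. Groups overlap in every region, and the bexarotene points of Novel1593 and Novel274 split into 2 high libraries and 2 near the vehicle points.

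Rn18s itself held 57.8, 58.6, 54.8 and 56.9% of the bexarotene libraries, against 50.8, 57.4, 59.8 and 52.2% of the vehicle libraries, although ribosomal RNA had been depleted. Per 100 counts of Rn18s, Novel981 had 18, 15.5, 16.5 and 16.6 counts in the bexarotene libraries, against 19.8, 15.6, 14.9 and 18.7 in the vehicle libraries. Per 100 counts of Rn18s, Novel1593 had 15.9, 17.6, 11.3 and 12 counts, against 12, 11.6, 11.2 and 11.8. The ratio of Novel1593 was thus nearly constant in 6 libraries and higher in Bexarotene 1 and 2. The 3 rows whose log2(CPM + 1) most resembled that of Novel981 over the 8 libraries were Novel1593 (Pearson r = 0.999), Novel274 (r = 0.993) and Rn18s (r = 0.993). These points share the library scaling, in which the rows with the most counts move together. Of 28 genes listed for comparison, 17 were rows of the table, 11 had a count and 7 passed the filter. All listed were structural or abundant non-coding RNAs except Lars2, a protein-coding gene. Of the 7, 0 rose and 0 fell (edgeR, adjusted p under 0.05), and the median log2 fold change of 0.24 was that of Lars2. The mitochondrial ribosomal RNAs mt-Rnr1 and mt-Rnr2 had no count in any library. Likeness of unnamed regions to large-subunit ribosomal RNA was not analysed here.

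Many of the regions are copies of each other. The 662 regions whose length equals their genomic span, and Novel1219 read across its span, were compared with each other, and 400 of these 663 fell into 16 families joined by at least 90% identity over 100 bases or more. The family of Novel981 had 4 regions and 37.2% of all counts in unnamed regions. Novel751, Novel1674 on chromosome X and Novel119 on chromosome 1 were its other members, at 98.1, 96.3 and 97.6% identity to Novel981. The family of Novel1593 had 2 regions and 27.0% of the counts, its second member Novel702 being 98.2% identical over 228 bases but with only 15 to 74 counts per library. The family of Novel753 had 5 regions, the 4 printed side by side among them, and 22.5% of the counts. The difference in counts within a family was large. Novel1301 had 8480 counts over all libraries at 96.2% identity to Novel1430, which had 2995742.

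The family with the most members had 310 regions on 22 chromosomes and scaffolds, but 0.436% of the counts. Its members ran from 206 to 9677 bases, had a median of 98.5% identity in their pairwise matches and, for the typical member, 937.75 copies in the genome of each stretch of 32 bases. Novel278, its most abundant member and the longest region with a count in every library, spans 9677 bases of chromosome 11 (chr11:115643323-115652999) and had 464, 167, 1400 and 851 counts with bexarotene, against 2041, 382, 670 and 2284 with vehicle. The family summed to 1100, 1140, 891 and 690 TMM-scaled CPM in the bexarotene libraries, against 802, 445, 717 and 1380 CPM in the vehicle libraries (956 ± 209 and 836 ± 393, SD, n = 4 each), so the groups overlapped. Of its members, 241 passed the filter, with a median log2 fold change of -0.03.

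Counts also differed by the number of copies in the genome. For the 663 regions read as 1 stretch, the number of exact copies of every 32-base word was counted over GRCm39. In 237 regions the median word was found at 1 place only, in 59 at 2 or more but under 10, in 54 at under 100, in 183 at under 1000 and in 130 at 1000 or more, up to 166170 copies. The typical region with words at 1 place had 22 counts, or 63.1 counts per 1000 bases, over all libraries. Regions at 100 or more but under 1000 places had a median of 225 counts, or 346 per 1000 bases, and those at 1000 or more places 178 counts, or 307 per 1000 bases. The sums lay mostly in regions of few exact copies in GRCm39, a number that leaves out diverged copies and copies absent from the assembly. The regions at 1 place held 29.1% of the counts in unnamed regions through Novel1593, those at 2 or more but under 10 places 50.8% through Novel981 and Novel1219, those at 10 or more but under 100 places 19.6% through Novel753, and those at 100 places or more 0.306% and 0.121%. Regions of 100 copies or more made up 238 of the 383 that passed the filter on low counts.

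**Figure D3:**
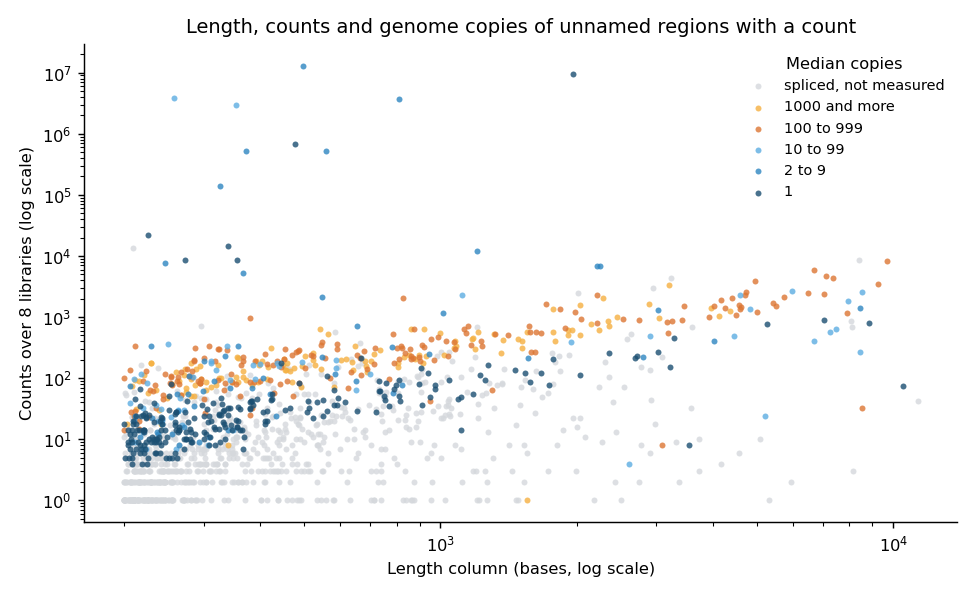
Counts over 8 libraries (vertical axis, log scale) against the length of each unnamed region with a count (horizontal axis, bases, log scale); colour gives the median number of genome copies of its 32-base words, and grey marks spliced regions without that measure. The typical region with 100 or more copies lies above the typical single-place region (class medians of 225 and 178 counts against 22). The single-place regions Novel1593 and Novel274 lie above every region with 100 or more copies. The few points above 100000 counts have short lengths or, for Novel1593, 1965 bases.

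By the length column, regions ran from 200 to 11331 bases with a median of 395. The 1029 regions of under 500 bases held 60.4% of the counts, led by Novel981, the 336 of 500 to under 1000 bases 12.1%, led by Novel1219, the 323 of 1000 to under 5000 bases 27.3%, led by Novel1593, and the 40 of 5000 bases or more 0.176%, led by Novel1459. Typical counts rose with length, with medians of 7, 25, 40 and 782 counts in the 4 classes from short to long. Per 1000 bases the medians were 25.7, 36.6, 30.4 and 97.5 counts, so only the longest class stood clearly above the rest. The share of unnamed-region counts in regions of 1000 to under 5000 bases was 32.8, 35.9, 25.7 and 27.6% in the bexarotene libraries, against 26.0, 25.8, 25.5 and 25.6% in the vehicle libraries (exact permutation p = 0.0857, adjusted 0.343). The difference of 4.81 percentage points was 0.96 without Bexarotene 1 and 2. That of regions of 500 to under 1000 bases was 8.52, 9.94, 12.3 and 11.3%, against 10, 14.0, 14.9 and 13.3% (exact permutation p = 0.114, adjusted 0.343), and its difference of -2.5 was -1.22 without them. The shortest class took 58.8% ± 3.43 with bexarotene and 61% ± 1.84 with vehicle (exact permutation p = 0.343, adjusted 0.411, n = 4 each), and the longest 0.133% ± 0.0725 and 0.212% ± 0.154 (exact permutation p = 0.4, adjusted 0.436). Without Bexarotene 1 and 2 the difference in the shortest class was 0.281 percentage points, against -2.22 with them. None of the 4 shares differed between the groups past the spread among mice. The smallest p that 4 against 4 allows is 0.0286.

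By chromosome, the regions were spread over all numbered chromosomes and both sex chromosomes, with 1652 there and 76 on 11 unplaced scaffolds. Chromosome 1 had most, with 119. The scaffold MU069435.1 was the most crowded for its size, with 29 regions on 31129 bases. Its regions other than Novel1593 had few counts, Novel1570 leading them with 1307 over all libraries. Unplaced scaffolds took 32.7, 35.8, 25.2 and 27.4% of the counts in unnamed regions in the bexarotene libraries, against 25.4, 25.6, 25.4 and 24.8% in the vehicle libraries. The bexarotene mean was 30.3% ± 4.85 and the vehicle mean 25.3% ± 0.358 (SD, n = 4 each), and the difference of 4.99 percentage points did not pass the test (exact permutation p = 0.114, adjusted 0.343). Without Bexarotene 1 and 2 it was 1.01 percentage points (exact permutation p = 0.533). Novel1593 alone made this share, so it repeats that region's pattern.

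Against the genes that are rows of the same table, 1586 regions lay between genes, 59 within introns and 83 touched an exon. Against the later GENCODE vM39 annotation, 455 of the 1586 touched an exon, for 420 of them only of long non-coding RNA genes. Regions without a count were mostly spliced regions that lie over each other. Of the 289, 280 were spliced and 243 overlapped another unnamed region, and 38.9% of the 625 overlapping regions had no count, against 4.17% of the 1103 others. One such place is Novel1318 at chr7:80486933-80495766, the third longest region with a count in every library, whose span holds Novel1319, Novel1320 and Novel1321, all without a count, while Novel1318 had 11 to 148 counts per bexarotene library and 57 to 246 per vehicle library. The number of regions with a count was 657, 537, 1016 and 909 with bexarotene, against 1166, 930, 844 and 1096 with vehicle. At the depth of the smallest library the numbers were 607, 537, 880 and 787, against 986, 769, 665 and 984, and the means of 703 ± 158 and 851 ± 160, whose difference of -148 was -17.8 without Bexarotene 1 and 2, did not differ past the spread (exact permutation p = 0.257, adjusted 0.411, n = 4 each).

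Whether single regions responded to bexarotene was tested with edgeR's quasi-likelihood test over all rows that passed the filter on low counts. Of the 1728 regions, 383 passed it, and 0 were called at an adjusted p under 0.05, beside 0 of all 11616 rows (0%). The smallest adjusted p of any region was 0.976. At an unadjusted p under 0.05 there were 17 regions, 4.44% of those tested, beside 3.68% of all rows. Of these, 10 were higher with bexarotene (2.61%, beside 2.38% of all rows) and 7 lower (1.83%, beside 1.3%). The median log2 fold change, bexarotene over vehicle, was -0.02 for the regions and -0.03 for all rows. No region had all 4 bexarotene libraries above all 4 vehicle libraries, which 1.41% of all rows had, and 2 regions had all 4 below (0.522%, beside 1.42% of all rows), Novel881 and Novel112, which are named after their values were seen. The shares at an unadjusted p under 0.05 lay near those of the whole table, and the shares without overlap lay below them. With library totals as the sole scaling, the median of all rows was -0.66 and that of the regions -0.74, with 11 regions at an unadjusted p under 0.05, of which 1 was higher, and with TMM factors taken from the named rows only, 12 of 17 were higher. Shares of all rows at these settings are not given here. DESeq2 called 1 region, Novel126, of 1437 with an adjusted p, beside 0.0118% of all rows.

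**Figure D4:**
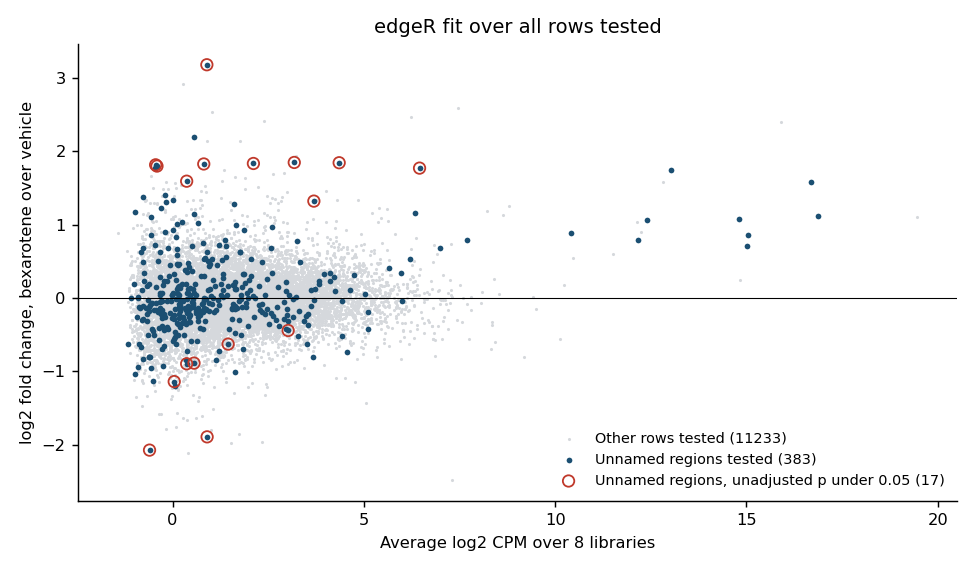
Log2 fold change, bexarotene over vehicle (vertical axis), against average log2 CPM over the 8 libraries (horizontal axis) from the edgeR fit; dark points are the 383 unnamed regions tested, grey points all other rows tested, and red rings the 17 regions at an unadjusted p under 0.05. The dark points centre on -0.02, and the most abundant regions lie between 0.71 and 1.75.

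The 9 most abundant regions that were tested had fitted log2 fold changes of 0.71 to 1.75, none called. The highest was Novel274 at 1.75 (SE 0.812, unadjusted p = 0.0538, edgeR adjusted p = 0.976), then Novel1593 at 1.58 (SE 0.9, edgeR adjusted p = 0.976), Novel981 at 1.12 and Novel1219 at 0.71. Rn18s was at 1.11. These folds are on the TMM scale, on which Bexarotene 1 and 2 were scaled up. Without those 2 libraries all 9 were below 0, from -0.17 for Novel981 and Novel1593 to -0.64 for Novel1284. With total counts as the only scaling, Novel753, Novel1219, Novel1284, Novel571 and Novel751 were below 0. No direction can be given for them.

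The 6 regions with the smallest p and a higher fit, at average log2 CPM values from 1 upwards, were Novel1486, Novel1487, Novel321, Novel1459, Novel261 and Novel744. All but Novel1459 belonged to the family of 310, which made up 241 of the 383 regions tested. Novel1486 had 21.0, 34.6, 4.93 and 4.34 TMM-scaled CPM in the bexarotene libraries, against 4.59, 3.08, 3.88 and 4.59 CPM in the vehicle libraries. Only Bexarotene 1 and 2 were high. Its log2 fold change was 1.85 (SE 0.58, unadjusted p = 0.0085, edgeR adjusted p = 0.976) and 0.21 without those 2 libraries. It lies at chr9:11214066-11214444 in an intron of Gm68332, beside Novel1487 at chr9:11216033-11218920. Novel1487 had 23.7, 37.2, 9.48 and 9.29 CPM, against 7.61, 4.62, 6.72 and 10.9 CPM. Novel321, at chr12:44830107-44832396 between genes, had 43.9, 74.8, 10.1 and 8.35 CPM, against 8.78, 5.62, 9.72 and 12.2 CPM. The same 2 bexarotene libraries were high in both. Novel1459 at chr9:44275072-44283884 on the minus strand, the most abundant region of 5000 bases or more, had 138, 335, 43.6 and 36.8 CPM, against 36.7, 25.9, 37.9 and 59.8 CPM, and its log2 fold change of 1.77 (SE 0.614, edgeR adjusted p = 0.976) was 0.02 without Bexarotene 1 and 2. Novel261 had 7.89, 23.2, 1.87 and 2.41 CPM, against 1.63, 0.945, 2.18 and 3.35 CPM. Novel744 had 8.05, 9.29, 2.11 and 1.65 CPM, against 1.97, 0.945, 1.26 and 3.21 CPM. Without Bexarotene 1 and 2, the log2 fold change was 0.34 for Novel1487 (1.32 with them), 0.03 for Novel321 (1.84), 0.08 for Novel261 (1.83) and 0.02 for Novel744 (1.27). Across the 6, Bexarotene 3 and 4 lay within or next to the range of the vehicle libraries.

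The 6 with the smallest p and a lower fit were Novel402, Novel42, Novel758, Novel998, Novel331 and Novel996, of which Novel402, Novel758 and Novel331 belonged to the family of 310. Novel42, a region of 8461 bases at chr1:170769149-170777609 in an intron of Gm70986, had 6.63, 7.6, 5.37 and 7.73 CPM in the bexarotene libraries, against 7.09, 9.7, 8.74 and 11.2 CPM in the vehicle libraries. The groups overlapped at Vehicle 1, and the log2 fold change was -0.44 (SE 0.198, unadjusted p = 0.0462, edgeR adjusted p = 0.976) and -0.47 without Bexarotene 1 and 2. Novel402, at chr13:68446195-68449098 between genes, had 2.52, 1.69, 1.73 and 2.12 CPM, against 2.86, 2.14, 3.44 and 4.09 CPM, overlapping at Vehicle 2, with a log2 fold change of -0.63 (SE 0.267, edgeR adjusted p = 0.976). Novel998, at chr3:96414106-96422625, had 3.94, 11.8, 7.51 and 13.3 CPM, against 18.1, 10.8, 8.85 and 25.2 CPM. Novel996, at chr3:96220197-96227690, had 0.158, 2.11, 1.67 and 3.3 CPM, against 4.17, 1.64, 1.64 and 7.9 CPM. In these 2 regions Vehicle 1 and Vehicle 4 were high and the rest of the libraries were mixed. Novel758 had a log2 fold change of -0.85 (SE 0.415), Novel998 of -0.80 (SE 0.393), Novel331 of -0.48 (SE 0.274) and Novel996 of -1.02 (SE 0.624). Without Vehicle 4 these were -0.47, -0.48, -0.23 and -0.41, and without Bexarotene 1 and 2 that of Novel996 was -0.64. None of the 6 was called.

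Novel126 had a pattern of its own. It is a spliced region of 209 bases on the plus strand at chr10:72106642-72133194, between genes and 9820 bases from Gm66295. It had 3391 and 10227 counts in Bexarotene 1 and 2, 0 counts in Bexarotene 3 and 4, and 15, 1, 1 and 9 counts in the vehicle libraries. So 99.81% of its counts were in 2 mice of the bexarotene group. Among the 11415 rows of the table with 100 counts or more it was the only row with 80% or more of its counts in those 2 libraries, and 4 rows had over 90% in any 2 libraries. The filter of edgeR removed it, because fewer than 4 libraries reached the minimum. Without the filter its log2 fold change was 12.4 (edgeR adjusted p = 0.0684), in DESeq2 it was 12.7 (adjusted p = 0.0449), and without Bexarotene 1 and 2 it was -5.46 (edgeR adjusted p = 1). The call in DESeq2 therefore rests on 2 of 4 mice. Its exons were not analysed here, because the table gives the total length and the span only.

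A cluster of 7 unnamed regions lay within the immunoglobulin kappa locus of chromosome 6, between 68219369 and 68262032. One of them, Novel1294, lay apart from 68260550 on, while the others ended at 68228381 or before. Novel1294 belonged to the family of 310, and its words had a median of 1151 copies in the genome. Whether reads of the cluster come from transcription of the kappa locus was not tested. The locus is rearranged and transcribed in B cells, whose marker Ms4a1 had no count in these libraries. The kappa constant gene Igkc had 1, 0, 5 and 1 counts in the bexarotene libraries, against 2, 12, 1 and 0 in the vehicle libraries, and the 160 Igkv genes of the table had 62 counts in all. The heavy-chain gene Ighm, on chromosome 12, did have counts, with 89, 32, 371 and 786 in the bexarotene libraries, against 1745, 573, 571 and 856 in the vehicle libraries. The unnamed cluster had 805, 272, 7038 and 2193 counts, against 9267, 2031, 2966 and 7758. On the TMM scale this was 127, 115, 239 and 103 CPM, against 184, 101, 162 and 260 CPM (146 ± 62.8 and 177 ± 65.6, SD, n = 4 each, exact permutation p = 0.543), so the groups overlapped. Novel1292 (chr6:68223254-68224460) led with 374, 154, 2618 and 812 counts, against 3532, 723, 1041 and 2857. Novel1293, the sequence printed above, had 31, 10, 1202 and 357 counts, against 1479, 374, 442 and 1392, with the fewest in Bexarotene 1 and 2. Its log2 fold change was -0.74 (SE 0.572, unadjusted p = 0.222, edgeR adjusted p = 0.976). The words of Novel1291, Novel1292, Novel1293 and Novel1229 were typically at 2 places in the genome.

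A related sequence lay on chromosome 12. Novel306 (chr12:92850247-92851258) matched the reverse strand of Novel1229 at 98.0% identity over 1012 bases, and Novel1229 also held 440 bases identical to Novel1290. In the chromosome 12 cluster of 5 regions, from 92850247 to 92859214, Novel306 lay between genes and the other 4 touched exons of the non-coding gene Gm40892. The cluster had 101, 30, 1822 and 569 counts in the bexarotene libraries, against 2183, 504, 815 and 2057 in the vehicle libraries. Its TMM-scaled sum was 15.9, 12.7, 61.9 and 26.8 CPM, against 43.3, 25.1, 44.5 and 68.9 CPM (29.3 ± 22.6 and 45.4 ± 18, SD, n = 4 each, exact permutation p = 0.343). Both clusters were highest in Bexarotene 3 among the bexarotene libraries and in Vehicle 4 among the vehicle libraries. Their reads can be shared between the copies, so the level at each place is uncertain.

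**Figure D5:**
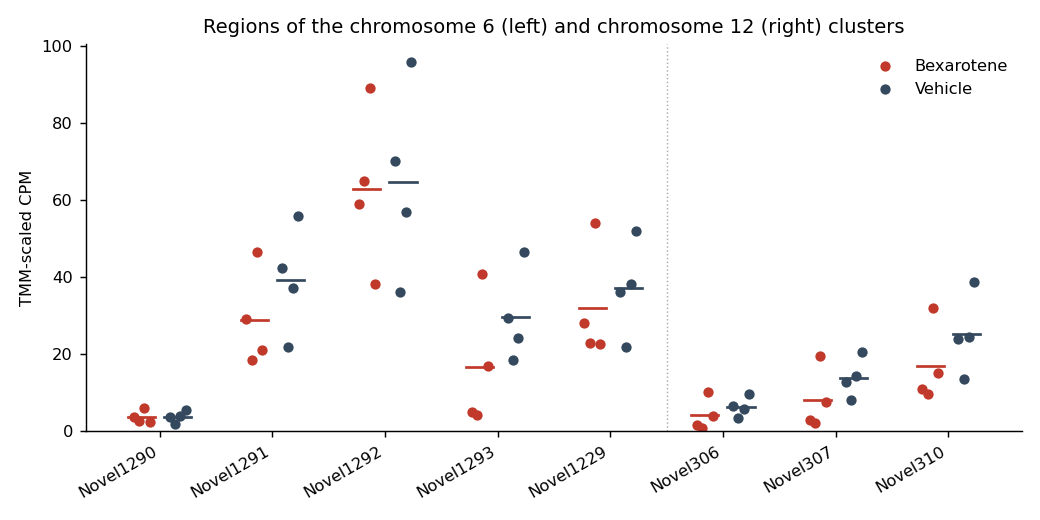
TMM-scaled CPM (vertical axis) of 5 regions of the chromosome 6 cluster and 3 of the chromosome 12 cluster; points are libraries, bars are group means, with bexarotene left of vehicle. Groups overlap in all 8 regions, and the 2 lowest bexarotene points of Novel1293, Novel306 and Novel307 are Bexarotene 1 and 2.

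On chromosome Y, 20 of 39 unnamed regions had a count, 2381 counts in all, although the mice were female and the Y genes Kdm5d, Eif2s3y, Uty and Ddx3y had no count in any library. Novel1713 (chrY:90748633-90755649) led with 21, 10, 190 and 84 counts in the bexarotene libraries, against 156, 78, 91 and 274 in the vehicle libraries. It lies near the end of the chromosome, and Novel1728, also there, matched it at 92.1% identity over 316 bases. Novel1722 and Novel1721, with 188 and 106 counts, belonged to the family of 310, whose sequence lies on many chromosomes. From which place in the genome these reads came was not tested.

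The shortest regions with a count in every library were Novel819 with 201 bases and Novel410 and Novel886 with 206 bases each. Novel886 had 5, 4, 15 and 12 counts in the bexarotene libraries, against 32, 5, 11 and 51 in the vehicle libraries, and a log2 fold change of -0.22 (SE 0.598, edgeR adjusted p = 1). Novel819 had 2 to 8 counts per bexarotene library and 5 to 20 per vehicle library, and Novel410 had 1 to 10 and 3 to 10, and both failed the filter on low counts. Besides Novel278, the longest were Novel174 with 9234 bases and Novel1318 with 8834 bases. Novel174 had 21.1, 19.4, 21.9 and 15.8 CPM, against 17.2, 8.8, 15.7 and 31.5 CPM. Its log2 fold change was 0.09 (SE 0.319, edgeR adjusted p = 1).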

How the data were processed

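RNA was extracted from tumour-bearing back skin, depleted of ribosomal RNA and made into libraries with a directional kit. Per the submitters' processing notes, the authors used Trimmomatic 0.30, FastQC 0.11.9, HISAT2 2.0.1, HTSeq 0.6.1, DESeq2 and the GRCm39 genome, and the methods name another HISAT2 version. The deposited table holds whole-number counts per gene or region for 8 libraries, unscaled and unfiltered. How the unnamed regions were defined and whether counting used strand is not given in the sources used here. All 8 columns of counts were mapped to samples, and no other column of values was left.

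The regions, lists and tests were chosen with earlier results of these data known. Totals ran from 8518428 to 24020342 counts per library, and p-values measure the spread between the 4 mice of each group. The fit used edgeR 4.0.16 (R 4.3.3) over all rows that passed filterByExpr (minimum count 10, minimum total 15), with TMM scaling, the quasi-likelihood test and Benjamini-Hochberg adjustment over all 11616 rows. The step was tested on simulated data with known changes. CPM values are TMM-scaled, and a positive log2 fold change means higher with bexarotene. Shares and numbers of regions were compared by two-sided exact permutation of the 8 libraries (70 assignments), with p adjusted over the 12 measures, 4 of them (the 3 families and the share outside the 10 most abundant regions) added after seeing the data. Named regions were the 10 with the largest mean share, any past the adjusted threshold, up to 6 higher and 6 lower with the smallest p at average log2 CPM values from 1 upwards, the 3 longest and 3 shortest with a count in every library, and the leaders of each length class and of scaffolds with over 1% of the counts. All others, including those of the chromosome 6, 12 and Y paragraphs, were named after their values were seen.

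Sequences were read from GRCm39 with samtools 1.23.1. Of the identifiers in the table, 52860 were in GENCODE vM39, of which 52823 had the same chromosome and 31712 the same start and end. Likeness was measured with blastn 2.17.0 for the 40 contiguous regions with most counts against GENCODE transcripts, and between all contiguous regions. A family joined regions with at least 90% identity over at least 100 bases and 50% of the shorter region. Genome copies are exact matches of 32-base words on both strands.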

Additional observations from a re-analysis of the deposited data

Results flagged for a closer look

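In 68 groups of 4 libraries (12 shares and numbers, 10 abundant regions and 12 regions with the smallest p, in each treatment group), 1 library lay far from the other 3 by Dixon's test, where chance gives about 1 in 20. It was the share of Novel1219, the Rn18s-like region, in Bexarotene 1, with 2.04% of the library against 2.49 to 2.58% in the other bexarotene libraries. Vehicle 1, at 2.1%, was about as low, so the value lies next to the range of all libraries.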

How the results depend on the processing

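No unnamed region was past the adjusted threshold in any edgeR or limma setting run, and DESeq2 gave 1, Novel126. The 17 of 383 tested regions at an unadjusted p under 0.05 became 11 of 383 with total counts as the only scaling and 81 of 1439 without a filter. They became 7 of 105 with at least 10 counts in every library, 44 of 1437 with DESeq2 and 5 of 522 without Bexarotene 1 and 2 (added after seeing the data). Leaving out 1 library at a time gave 9 to 38 regions. These were 9 of 472 without Bexarotene 1, 11 of 477 without Bexarotene 2, 37 of 385 without Bexarotene 3, 38 of 462 without Bexarotene 4 and 33 of 391 without Vehicle 4. The share of all rows is given for the main fit only, so these counts are not set against the whole table. The median log2 fold change of -0.02 became -0.74 with total counts only, where the median of all rows was -0.66, and ran from -0.18 to 0.28 with 1 library left out, the last without Vehicle 4. The cause of these shifts was not tested.

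The share of counts in unnamed regions differed by 1.22 percentage points, 0.496 to 1.9 with 1 library left out, and by -0.609 without Bexarotene 1 and 2. The share on scaffolds differed by 4.99, 3.14 to 6.67 with 1 library left out. The share in regions of under 500 bases differed by -2.22 and, without Bexarotene 1 and 2, by 0.281. Leaving 1 library out cannot give an exact p under 0.0571.

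Among single regions, total counts as the only scaling turned Novel753 to -0.10, Novel1219 to -0.27, Novel1284 to -0.0568, Novel571 to -0.15 and Novel751 to -0.11. Leaving out Bexarotene 2 turned Novel1219 to -0.0353, and leaving out 1 library at a time took it up to 1.15, without Vehicle 3. Without Bexarotene 1 and 2, Novel981 was at -0.17, Novel1593 at -0.17, Novel753 at -0.22, Novel1219 at -0.47, Novel1430 at -0.30, Novel274 at -0.28, Novel1284 at -0.64, Novel571 at -0.42 and Novel751 at -0.55.

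With a replicate block the count was again 17, but 4 were higher where the main fit had 10. The share of all rows with the block is not given here, so these counts are not set against the whole table. The median was -0.05, beside -0.02 for all rows. In both fits 0 regions passed the adjusted threshold. Deviations of log2 CPM from the group mean were correlated between same-numbered libraries. The correlations were -0.0765, -0.0899, -0.0729 and 0.00149, so no pairing by number was seen. Depth limits the low rows: 1345 regions failed the filter and were not tested. Counts of near-identical copies depend on how the aligner placed reads, which was not tested. The paper's methods describe the reads as uniquely aligned, and do not state how reads that fit several places were handled.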
